A study of Mus musculus with 18 samples.

Results

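The 10 genes that carry fatty acids and cholesterol into, within and out of macrophages were followed through osteoclast differentiation. They were Cd36, Lpl, Fabp4 and Fabp5 for uptake and transport, Plin2 for storage, Abca1, Abcg1 and Apoe for efflux, and the nuclear receptors Pparg and Nr1h3, chosen by name as 10 of the 34745 genes of the count table. All 10 were among the 14241 genes that passed the filter on low counts. Bone marrow cells from 4- to 8-week-old Zmat1-/- mice and Zmat1+/+ littermates had been grown into bone marrow-derived macrophages (BMDMs) with the growth factor M-CSF, which all cultures received. RNA was sequenced before (day 0) and after 1 and 3 days of RANKL, the cytokine that turns these precursors into bone-resorbing osteoclasts. Each of the 6 combinations of label (WT or KO) and day had 3 libraries, and the labels do not say whether these came from separate mice, so p-values measure the spread between libraries, which may be technical. The groups addressed how the genes changed with RANKL and whether the Zmat1 label altered that.

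Macrophages take up fatty acids through the scavenger receptor CD36 and after lipoprotein lipase has split triglycerides, carry them on small fatty acid-binding proteins, and keep the surplus in droplets coated by perilipin 2. Surplus cholesterol leaves through the transporters ABCA1 and ABCG1 and on apolipoprotein E. PPARγ, encoded by Pparg, and LXRα, encoded by Nr1h3, are receptors for lipid ligands that switch on several of these genes, and osteoclast precursors are cells of the macrophage lineage.

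Library totals ran from 13789775 to 17559958 counts. The labels could not be checked by the targeted gene: Zmat1 lay between 3.49 and 7.61 CPM (counts scaled to a common library size) in the KO day 0 libraries and between 2.48 and 7.50 CPM in the WT day 0 libraries, and on day 3 it lay between 4.65 and 5.66 CPM under the KO label and between 2.19 and 4.71 CPM under the WT label. Counts cover the whole gene and not a deleted part. Groups are therefore called by their labels below. Libraries also differed by how their titles were typed. A double hyphen stood in 5 titles (WT day 0 library 1, KO day 0 library 2, KO day 1 libraries 1 and 2, and one WT day 1 library that shares the number 1 with another). The other 13 titles, those of every day 3 library included, had a single hyphen. What the style stands for is not given in the sources used here. WT day 0 library 2 stood apart for these genes: of all 18 libraries it had the lowest Abcg1, Fabp4, Lpl and Nr1h3 and the highest Abca1. Values without these libraries are given beside the results they moved.

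The genes lie on 8 chromosomes. In GRCm38 coordinates of the table, Cd36 is at chr5:17781690-17888801, Lpl at chr8:68880491-68907448, Fabp4 at chr3:10204088-10208576, Fabp5 at chr3:10012548-10016607, Plin2 at chr4:86648386-86670060, Abca1 at chr4:53030787-53159895, Abcg1 at chr17:31057698-31115777, Apoe at chr7:19696109-19699166, Pparg at chr6:115360951-115490399 and Nr1h3 at chr2:91184061-91202834. All 10 are protein-coding, and counts were over the whole gene. Fabp5 and Fabp4 are 187.5 kb apart on the same chromosome. Overlap with other genes was slight: the transcript opposite Pparg had 0 counts and Gm13783, which overlaps Nr1h3, had 5 counts over all libraries. Of the stretches of 31 bases in Fabp5 transcripts, 7.24% also occur in the pseudogene Gm6166, the largest share for any member, so Fabp5 reads that fall there could have been assigned to either.

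RefSeq promoter sequences (build GRCm38.p6) were held for 6 of the 10 genes and are shown for Abca1, Plin2 and Apoe because these were the members called in both labels by day 3. Each is the run of 250 bases before the start site on the minus strand, at chr4:53159896-53160145, chr4:86670060-86670309 and chr7:19699189-19699438, and capitals mark the letters AGGTCA, which nuclear receptors recognise, or CACGTG, the E-box, on either strand.
Abca1: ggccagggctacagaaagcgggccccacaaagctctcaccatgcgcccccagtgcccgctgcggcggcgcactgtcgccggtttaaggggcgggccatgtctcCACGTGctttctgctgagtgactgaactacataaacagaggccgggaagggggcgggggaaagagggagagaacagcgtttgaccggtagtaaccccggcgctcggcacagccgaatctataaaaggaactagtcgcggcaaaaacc
Plin2: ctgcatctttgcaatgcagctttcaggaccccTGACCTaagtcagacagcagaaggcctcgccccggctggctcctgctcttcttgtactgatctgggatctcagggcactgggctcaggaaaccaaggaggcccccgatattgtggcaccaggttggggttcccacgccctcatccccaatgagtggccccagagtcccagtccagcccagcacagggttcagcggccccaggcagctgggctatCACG
Apoe: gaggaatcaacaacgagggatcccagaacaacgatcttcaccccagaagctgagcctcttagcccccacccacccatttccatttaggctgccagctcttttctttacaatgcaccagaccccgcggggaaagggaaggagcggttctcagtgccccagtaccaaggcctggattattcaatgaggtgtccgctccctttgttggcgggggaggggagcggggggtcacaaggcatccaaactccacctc
CACGTG begins 147 bases before the start site of Abca1 and 4 bases before that of Plin2. Among all 32851 promoters of 300 bases (250 before to 50 after the start), 7.15% hold CACGTG and 16.3% hold AGGTCA. The Plin2 promoter also holds AGGTCA, read on the opposite strand, beginning 218 bases before the start, as do the promoter of Cd36 at 228 bases and, on the forward strand, that of Pparg at 28 bases. The Abca1, Apoe and Nr1h3 promoters have no AGGTCA in this window. The start sites used for Cd36 and Nr1h3 lie 52905 and 7718 bases from the 5' end of the gene in the count table. No member promoter holds 2 copies of AGGTCA in direct repeat with 1 or 4 bases between them (DR1 and DR4, in 0.04% and 0.015% of all promoters, where both strands were searched and each copy is also an AGGTCA match), or TGANTCA, the AP-1 letters (in 7.81% of all promoters). Only exact matches to these letters were searched, so looser forms of these sites may be present in any of the promoters, that of Abca1 included. These matches are descriptions of the letters only.

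Per length of transcript, Apoe was by far the most abundant member. Averaged over the 18 libraries, the deposited FPKM was 1963 for Apoe, 159 for Fabp5, 84.2 for Cd36, 83.7 for Plin2, 83.3 for Lpl, 53.9 for Abca1, 33.8 for Abcg1, 14.0 for Fabp4, 6.91 for Pparg and 4.56 for Nr1h3. The FPKM ranges of the neighbours Cd36, Plin2 and Lpl overlapped, at 20.1 to 192, 37.1 to 220 and 11.2 to 164. Those of the receptors Pparg (3.95 to 12.2) and Nr1h3 (1.46 to 9.29) also overlapped. These ranges span all groups. Within libraries, Pparg was above Nr1h3 in all but the single-hyphen WT day 1 library 1 (4.43 against 9.29) and WT day 3 library 1 (4.15 against 4.34). The ranges of Apoe (170 to 3588) and Fabp5 (51.9 to 373) overlapped through WT day 3 library 3 alone, the only library with Apoe under the highest Fabp5 value. The members differed in how well replicates agreed. The SD of log2 CPM within groups was 0.24 for Abca1, below the median of 0.30 over all genes tested, and 1.41 for Fabp4, above 98.1% of genes tested; the other 8 lay between 0.58 and 0.97.

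**Figure D1:**
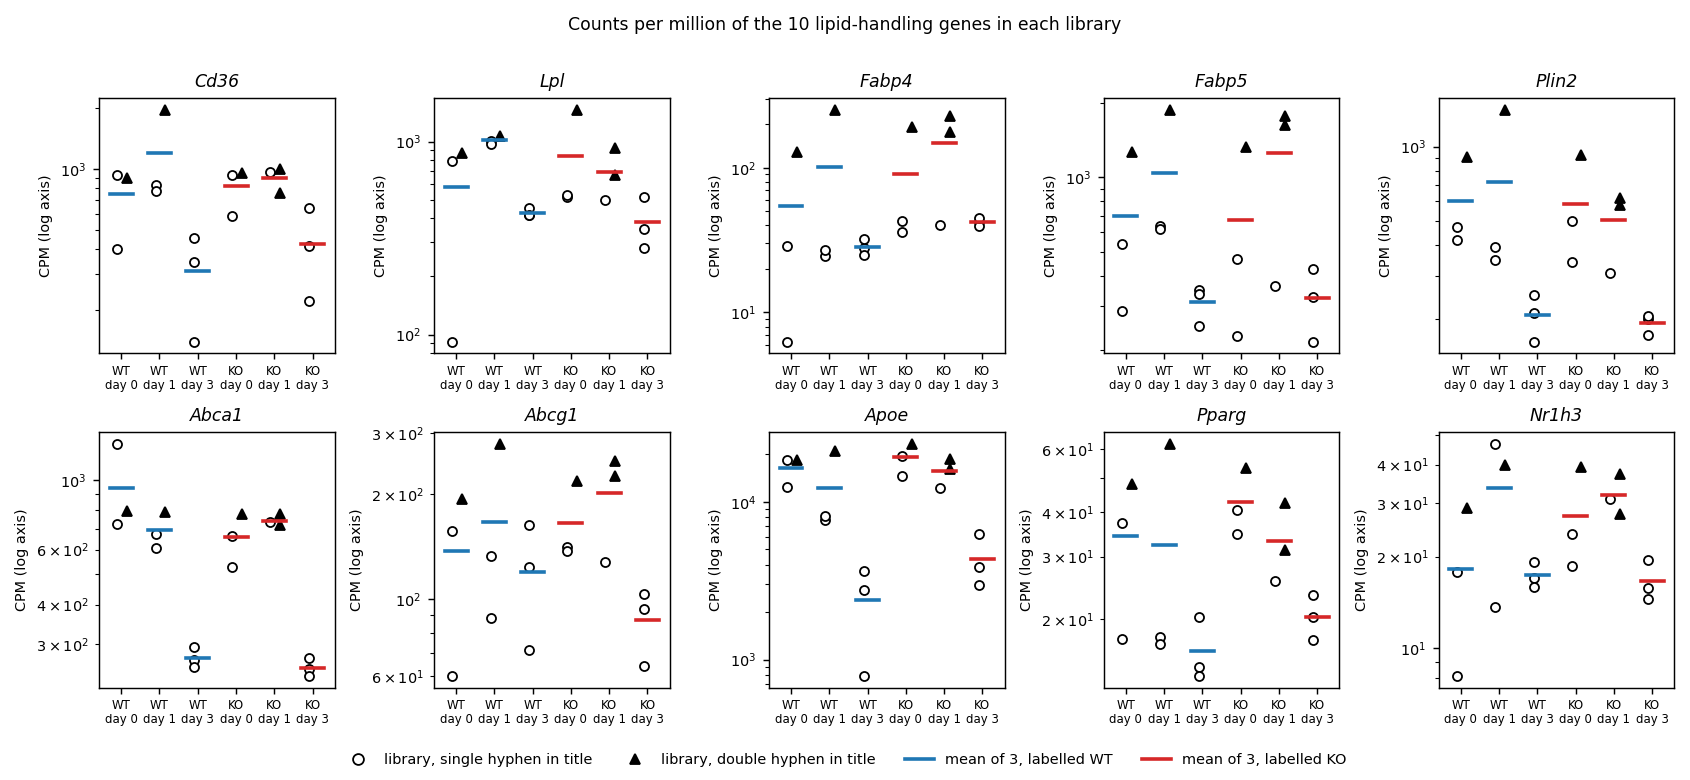
CPM (log axis) of each of the 10 genes in each of the 18 libraries, by label and day; circles are libraries with a single hyphen in the title, triangles those with a double hyphen, and bars are means of 3. Abca1 and Apoe sit lower on day 3 in every library of both labels, and the 5 triangles of Fabp4 (129 to 253 CPM) sit above all circles (6.27 to 45.3 CPM).

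By day 3 of RANKL the efflux genes Abca1 and Apoe and the droplet gene Plin2 had fallen in the libraries of both labels, and Cd36 had fallen in those labelled WT. The edgeR quasi-likelihood test (Benjamini-Hochberg adjusted over 14241 genes, called at an adjusted p under 0.05) called 4 of 10 members in the WT label, all lower, where 50.2% of all genes were called and 26.5% were called lower. Under the KO label it called 3 of 10, all lower, where 42.5% of all genes were called and 22.3% were called lower. No member rose. The log2 fold change was below 0 in all 10 members in both labels, with medians of -1.11 (WT) and -1.08 (KO) against -0.03 and -0.01 over all genes, but these signs did not hold for every member once the title style was considered. In bulk RNA, fewer cells of a type and less RNA per cell cannot be told apart. Scaling by total counts in place of TMM placed the median gene at a log2 change of 0.33 (WT) and 0.29 (KO), so changes are relative to the median gene.

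Abca1, the transporter that loads cholesterol onto apolipoprotein A-I, gave the most even fall. Its CPM in WT day 0 libraries was 798, 1307 and 724, and on day 3 it was 293, 266 and 253. In KO day 0 libraries it was 665, 779 and 527, and on day 3 it was 248.5, 237 and 270.3. All 6 day 3 libraries lay below all 6 day 0 libraries. The log2 fold change was -1.80 (SE 0.21, adjusted p = 1.975e-05, 3.48-fold lower) in the WT label and -1.38 (SE 0.20, adjusted p = 0.000186, 2.61-fold lower) in the KO label. Without WT day 0 library 2, which had the highest value, the WT change was -1.46.

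Apoe, the apolipoprotein that macrophages secrete to carry cholesterol away, fell the most. Its CPM went from 18470, 12370 and 18310 to 2752, 3640 and 788 in the WT label. Under the KO label it went from 19480, 23360 and 14660 to 3844, 2965 and 6259. Again no day 3 library reached any day 0 library. The log2 fold change was -2.78 (SE 0.53, adjusted p = 0.000771, 6.84-fold lower) in the WT label and -2.14 (SE 0.52, adjusted p = 0.00504, 4.40-fold lower) in the KO label. WT day 3 library 3 was the lowest of all 18, and without it the WT change was -2.36.

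Abcg1, the transporter that passes cholesterol to high-density lipoprotein, was not called in either label. Its WT CPM was 194, 60.1 and 157 on day 0 and 123, 71.5 and 163 on day 3, which overlap. The value of 60.1, from WT day 0 library 2, was the lowest of all 18. The WT log2 fold change was -0.20 (interval -1.19 to 0.79, edgeR adjusted p = 0.734), an interval that includes the KO estimate below. KO CPM was 142, 219 and 138 on day 0 and 93.4, 104 and 64.1 on day 3, without overlap. The KO log2 fold change was -0.93 (SE 0.47, adjusted p = 0.120). With the replicate number as a block, which takes same-number libraries as pairs though pairing was not shown, it was -0.94 (SE 0.26, adjusted p = 0.0150). It was -0.66 (adjusted p = 0.335) without the double-hyphen KO day 0 library 2.

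Plin2, the coat protein of lipid droplets, fell in both labels. Its WT CPM was 911, 417 and 474 on day 0 and 211, 250.3 and 162 on day 3. Its KO CPM was 498, 923 and 341 on day 0 and 200, 172 and 207 on day 3. The groups did not overlap in either label, and the highest day 0 library of each was the double-hyphen one. The log2 fold change was -1.53 (SE 0.51, adjusted p = 0.0229) in the WT label and -1.61 (SE 0.51, adjusted p = 0.0218) in the KO label. The call was lost without WT day 0 library 1 (-1.07, adjusted p = 0.120), WT day 3 library 1 (adjusted p = 0.0580) or WT day 3 library 3 (adjusted p = 0.0822), and in the KO label without KO day 0 library 2 (-1.10, adjusted p = 0.118), KO day 3 library 1 (adjusted p = 0.0555) or KO day 3 library 2 (adjusted p = 0.0713).

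Of the uptake genes, only Cd36 passed the test, and only in the WT label. CD36 is a scavenger receptor that brings in fatty acids and oxidised lipoproteins. Its WT CPM was 904, 403 and 935 on day 0 and 347, 454 and 139 on day 3, which overlap through WT day 0 library 2. Its KO CPM was 587, 958 and 934 on day 0 and 416, 222 and 639 on day 3, which also overlap. The WT log2 fold change was -1.25 (SE 0.49, adjusted p = 0.0455), and it was lost without WT day 0 library 1 (adjusted p = 0.132), WT day 0 library 3 (adjusted p = 0.120), WT day 3 library 1 (adjusted p = 0.0814) or WT day 3 library 3 (adjusted p = 0.161). Cd36 had the highest adjusted p of the members called here.

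Lpl, the lipase that frees fatty acids from lipoproteins, had WT CPM of 872, 91.6 and 789 on day 0 and 415, 453 and 415 on day 3. Apart from the low WT day 0 library 2, the day 0 values were the higher ones. KO CPM was 515, 1466 and 531 on day 0 and 515, 352 and 279.5 on day 3, where the highest day 3 library was just below the lowest day 0 library (514.5 and 514.9 CPM). The KO log2 fold change was -1.13 (SE 0.59, adjusted p = 0.131), and it was -0.43 (adjusted p = 0.596) without KO day 0 library 2.

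Fabp4 and Fabp5 encode the adipocyte and the epidermal fatty acid-binding proteins, both also made by macrophages. Fabp4 CPM on day 3 was 28.1, 32.5 and 25.1 (WT) and 42.2, 39.6 and 45.3 (KO), against 129, 6.27 and 29.0 (WT) and 42.8, 193 and 36.0 (KO) on day 0. Fabp5 CPM on day 3 was 351, 337 and 250.1 (WT) and 427, 327 and 216 (KO), against 1265, 287 and 535 (WT) and 467, 1325 and 227 (KO) on day 0. For both genes 1 library in each day 0 group, the double-hyphen one, stood far above the rest, and neither gene was called.

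Neither receptor was called. Pparg, the lipid-sensing receptor that drives Fabp4 and Cd36 in macrophages, had WT CPM of 48.1, 17.6 and 37.2 on day 0 and 14.7, 20.4 and 13.9 on day 3. Its KO CPM was 40.4, 53.2 and 34.8 on day 0 and 23.4, 17.4 and 20.3 on day 3, without overlap. The log2 fold change was -1.07 in both labels (WT SE 0.45, adjusted p = 0.0591, and KO SE 0.45, adjusted p = 0.0655). Nr1h3, an LXR that drives Abca1 and Abcg1, had WT CPM of 28.9, 8.13 and 17.7 on day 0 and 19.2, 17.0 and 15.9 on day 3. Its KO CPM was 18.6, 39.4 and 23.7 on day 0 and 19.5, 15.8 and 14.5 on day 3. Both of its day 3 groups overlapped day 0.

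Counted by overlap, 3 members (Abca1, Apoe, Plin2) had every WT day 3 library below every WT day 0 library, where 31% of all genes did. In the KO label 6 members did (these and Abcg1, Lpl, Pparg), where 29.4% of all genes did.

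The make-up of the cultures changed over the same days, and its part in the fall of the lipid genes was not tested. The summed CPM of 8 macrophage markers went from 30390 to 58100 on day 0 to 6421 to 13300 on day 3 in the WT label, and from 34210 to 60520 to 8787 to 17590 in the KO label, and 7 of 8 fell in each. The sum of 9 osteoclast markers went from 215 to 629 to 15880 to 23180 (WT) and from 622 to 915 to 8145 to 17540 (KO), and 8 of 9 rose in each. The sum of 8 stromal cell markers also rose, from 73.5 to 4308 to 10080 to 13070 (WT, 5 of 8 called higher) and from 908 to 3204 to 18240 to 26030 (KO, 7 of 8 called higher). The sum of 6 platelet markers went from 80.4 to 381 to 25.2 to 88.7 CPM over both labels, with 5 of 6 called lower in each. The 7 endothelial markers summed to at most 92.2 CPM. Fabp4, Lpl, Cd36, Plin2 and Pparg are also abundant in adipocytes. Of 8 adipocyte markers, Lep had 0 counts in every library, Cfd at most 1, Retn at most 2, Cidec at most 4, Plin1 at most 8 and Adrb3 at most 11, and these were not tested. Adipoq reached 189 counts in KO day 3 library 1 and was called higher by day 3 in both labels (log2 fold change 3.64 and 5.10). Lipe, the hormone-sensitive lipase, which is also in the list of lipolysis genes, had 248 to 746 counts and was called lower in both (-1.10, edgeR adjusted p = 9.864e-05, and -1.12, edgeR adjusted p = 0.0001515). The 8 markers, with Lipe as nearly all of the sum on days 0 and 1, summed to 40.6 to 46.3 CPM on WT day 0 and 17.6 to 27.4 on WT day 3, and to 36.5 to 39.5 and 18.8 to 30.97 in the KO label. Their part in the fall of the lipid genes was not tested.

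**Figure D2:**
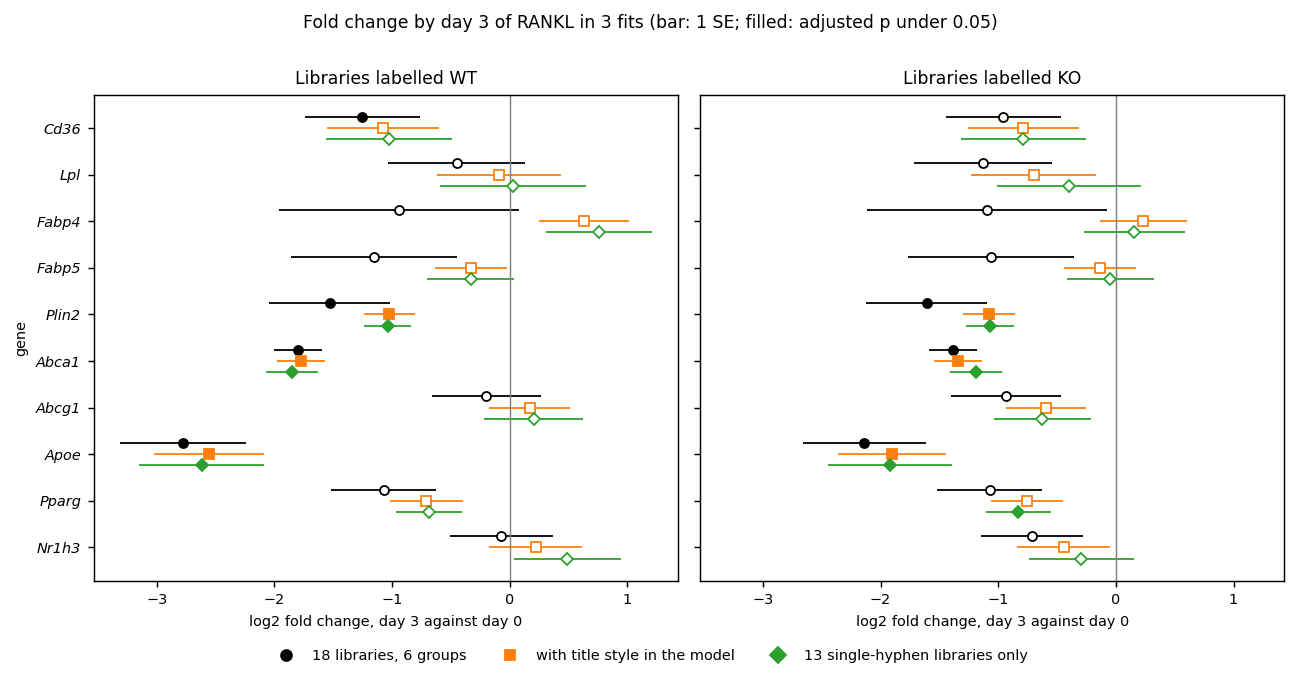
Log2 fold change of each gene from day 0 to day 3 in the libraries labelled WT (left) and KO (right), from all 18 libraries (circles), with the title style in the model (squares) and in single-hyphen libraries only (diamonds); bars are 1 SE and filled symbols have an adjusted p under 0.05. Abca1, Apoe and Plin2 are filled in all 3 fits, while Fabp4 moves from -0.94 to 0.63 (WT) and from -1.09 to 0.23 (KO) when the style is in the model.

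Several of these genes followed the title style. With style as a term in the model, 5 of 10 members were higher in double-hyphen libraries and none was lower, where 23.2% of all genes were called for the style and 9.94% were called higher. Fabp4 was 6.52-fold higher (log2 2.71, SE 0.27, adjusted p = 5.351e-05), Fabp5 3.58-fold (log2 1.84, SE 0.22, adjusted p = 0.000221), Plin2 2.43-fold (log2 1.28, SE 0.16, adjusted p = 0.000221), Abcg1 1.92-fold (log2 0.94, SE 0.25, adjusted p = 0.0149) and Pparg 1.91-fold (log2 0.94, SE 0.22, adjusted p = 0.00882). The change was 0.10 (SE 0.15, adjusted p = 0.654) for Abca1, and the other members lay between 0.49 and 0.85 without a call.

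Within days 0 and 1, where both styles occurred, Fabp4 was 129 to 253 CPM (median 193) in the 5 double-hyphen libraries and 6.27 to 42.8 CPM (median 29.0) in the 7 single-hyphen ones. Fabp5 was 1265 to 1880 CPM (median 1633) against 227 to 633 (median 467). Plin2 was 580 to 1413 CPM (median 911) against 306 to 498 (median 391), and Abcg1 was 194 to 280 CPM (median 227) against 60.1 to 157 (median 133). For these 4 members every double-hyphen library lay above every single-hyphen one, where 3.65% of all genes did. Abca1, Apoe, Cd36, Lpl, Pparg and Nr1h3 overlapped. Summed stromal markers moved the other way, at 73.5 to 3063 CPM in double-hyphen and 477 to 7300 CPM in single-hyphen libraries of these days. Of these 5 of 8 were called lower for the style, where 23.2% of all genes were called in either direction. Summed macrophage markers were 47290 to 60520 against 30390 to 50650 CPM. Of these 1 of 8, Cd68, was called higher (log2 0.59), and the other 7 lay between -0.15 and 0.60. The 6 platelet and megakaryocyte markers summed to 41.2 to 81.4 CPM in double-hyphen and 108 to 381 CPM in single-hyphen libraries, without overlap. Of these only Pf4 was called for the style (log2 -2.19), and the other 5 lay between -0.06 and 0.53. The part of these cell types in the style difference was not tested.

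**Figure D3:**
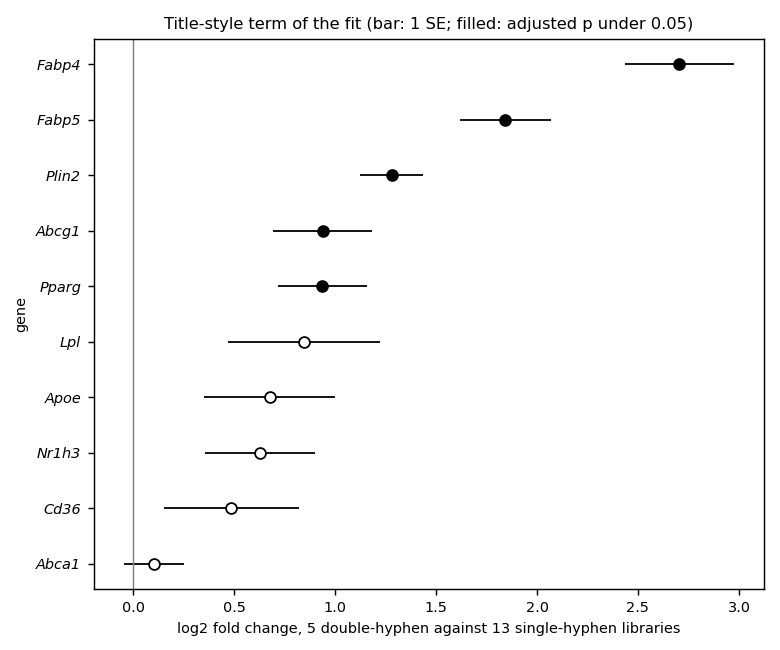
Style term of the fit for each gene, as the log2 fold change of double-hyphen against single-hyphen libraries with the 6 groups in the model. Bars are 1 SE and filled circles have an adjusted p under 0.05. Every day 3 library had a single hyphen, so the term rests on 5 double-hyphen and 7 single-hyphen libraries of days 0 and 1. Fabp4 is at 2.71 and Fabp5 at 1.84, and Abca1 at 0.10 lies within 1 SE of 0.

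The falls of Abca1, Apoe and Plin2 by day 3 were also seen when style was taken into account. With style in the model, Abca1 was -1.77 (adjusted p = 2.019e-05) and -1.34 (adjusted p = 0.00024) in the WT and KO labels. Apoe was -2.56 (adjusted p = 0.00053) and -1.90 (adjusted p = 0.0046), and Plin2 was -1.02 (adjusted p = 0.00165) and -1.08 (adjusted p = 0.00166). Cd36 in the WT label was -1.08 (adjusted p = 0.0703) and no longer called. In that fit 53% (WT) and 43.9% (KO) of all genes were called. In single-hyphen libraries alone, the same 3 genes were called in both labels and Pparg was called in the KO label (-0.83, SE 0.28, adjusted p = 0.0366), where 46.1% (WT) and 39.8% (KO) of all genes were called. There the day 0 groups held 2 libraries each and the KO day 1 group 1, which is assumed to vary like the other groups. In that subset Fabp4 was 0.76 (SE 0.45) and 0.16 (SE 0.43) and Fabp5 was -0.33 (SE 0.37) and -0.05 (SE 0.37), none called. The values near -1 of Fabp4 and Fabp5 in the whole set therefore rest on the double-hyphen day 0 libraries.

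After 1 day of RANKL no member was called in either label. In the WT label edgeR called 0 of 10 members, where 2.35% of all genes were called. An unadjusted p under 0.05 occurred for 1 member (Abca1, -0.45, interval -0.88 to -0.02), against 2914 of the 14241 genes. In the KO label edgeR called 0 of 10, where 0.0211% of all genes were called. No member had an unadjusted p under 0.05 there, against 1456 of the 14241 genes. DESeq2 and limma also called 0 of 10 in both. Lpl had WT day 1 CPM of 1072, 1005 and 972, all above the day 0 values of 872, 91.6 and 789, and was the only member without overlap, where 8.46% of all genes were higher without overlap. Its log2 fold change of 0.80 (SE 0.58, adjusted p = 0.465) was 0.30 without WT day 0 library 2. The day 1 CPM of Abca1 was 793, 608 and 674 (WT) and 717, 777 and 734 (KO), near its day 0 levels. Apoe was 20950, 7667 and 8146 (WT, the double-hyphen library first) and 16220, 18630 and 12290 (KO).

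From day 1 to day 3 the same 4 genes fell in the WT label as from day 0, in a comparison that shares its day 3 libraries with that one. There 4 of 10 members were called, all lower, where 32% of all genes were called and 19.3% called lower. They were Abca1 (-1.35, SE 0.20, adjusted p = 0.000368), Apoe (-2.36, SE 0.53, adjusted p = 0.00416), Cd36 (-1.93, SE 0.50, adjusted p = 0.00969) and Plin2 (-1.79, SE 0.52, adjusted p = 0.0173). WT day 1 Cd36 was 1966, 828 and 780.5 CPM and Plin2 was 1413, 347 and 391 CPM, the double-hyphen library first, and without that library Cd36 was -1.33 (adjusted p = 0.0649) and Plin2 -0.80 (adjusted p = 0.180), so that 2 members were called, with Apoe at -1.70 (adjusted p = 0.0246). Plin2 was also lost without WT day 3 library 1 (adjusted p = 0.0511) or library 3 (adjusted p = 0.0730). Fabp5 (-1.74, SE 0.72, adjusted p = 0.0772) and Lpl (-1.25, SE 0.59, adjusted p = 0.117) did not overlap between these days and were not called, and leaving out the double-hyphen library of WT day 1 gave -0.98 for Fabp5. In all, 6 members (the called ones, Fabp5 and Lpl) had every WT day 3 library below every WT day 1 library, where 27.1% of all genes did.

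In the KO label 2 of 10 members were called from day 1 to day 3, both lower, where 28% of all genes were called and 15.5% called lower. Abca1 was -1.56 (SE 0.20, adjusted p = 0.000213) and Apoe -1.85 (SE 0.52, adjusted p = 0.0165). The Apoe call was lost without KO day 3 library 1 (adjusted p = 0.0596), KO day 3 library 2 (adjusted p = 0.0766) or KO day 1 library 2 (adjusted p = 0.0592), and with style in the model (adjusted p = 0.0609). Plin2 (-1.38, SE 0.51, adjusted p = 0.0562), Abcg1 (-1.21, SE 0.47, adjusted p = 0.0666), Cd36 (-1.09, SE 0.49, adjusted p = 0.107), Nr1h3 (-0.94, SE 0.44, adjusted p = 0.118) and Pparg (-0.70, SE 0.45, adjusted p = 0.248) did not overlap and were not called. With Abca1 and Apoe these were 7 members, where 25.1% of all genes were lower without overlap. With style in the model Plin2 was -0.47, Abcg1 -0.53 and Pparg -0.07, none called. With the replicate number as a block, 4 members were called, with Abcg1 (-1.19, adjusted p = 0.00846) and Fabp5 (-1.67, adjusted p = 0.0385) beside Abca1 and Apoe, where 28.2% of all genes were called. In single-hyphen libraries only, Abcg1 was -0.52 (adjusted p = 0.560) and Fabp5 -0.12 (adjusted p = 0.892). Without KO day 1 library 3, the single-hyphen one of its group, 5 were called, Abcg1 (adjusted p = 0.0465) and Plin2 (adjusted p = 0.0396) among them, where 29% of all genes were called.

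Between the labels no member was called. On day 0, 0 of 10 members were called, where 0.119% of all genes were. On day 1, 0 of 10 were called, where 0.112% of all genes were, and on day 3, 0 of 10, where 0.14% were. An unadjusted p under 0.05 occurred for 1 member on day 0 and for none on days 1 and 3. Of the 14241 genes, 1081, 1125 and 1521 had one on days 0, 1 and 3. DESeq2 and limma called 0 of 10 on each day. The member on day 0 was Abca1, with a KO minus WT log2 difference of -0.52 (interval -0.95 to -0.09, adjusted p = 0.564). These WT libraries include the library at 1307 CPM.

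A pair of members did not overlap between the labels on 1 day each. On day 1, Lpl was 671, 929 and 497 CPM in the KO label and 1072, 1005 and 972 CPM in the WT label (log2 difference -0.54, SE 0.58, adjusted p = 0.835), where 5.82% of all genes were lower without overlap. On day 3, Fabp4 was 42.2, 39.6 and 45.3 CPM in the KO label and 28.1, 32.5 and 25.1 CPM in the WT label (log2 difference 0.57, SE 1.02, adjusted p = 0.868), where 15.9% of all genes were higher without overlap. The Fabp4 libraries of day 3 lay close together within each label, while its SE pools the spread of all 6 groups. Over 17 alternatives its adjusted p ran from 0.0679, in a fit of the day 3 libraries alone, to 0.986.

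The intervals of the label differences were wide for most members. On day 3 the 95% interval of the log2 difference was -0.53 to 0.32 for Abca1, -0.21 to 1.94 for Apoe, -1.18 to 0.96 for Plin2 and -0.59 to 1.48 for Cd36, and -1.60 to 2.74 for Fabp4. Changes of 2-fold between the labels lay within the intervals of Apoe, Plin2, Cd36 and Fabp4 and outside that of Abca1. The difference between the labels in the change from day 0 to day 3 was tested as an interaction. It was called for 0 of 10 members, where 0% of all genes were called, and no member had an unadjusted p under 0.05, against 769 of the 14241 genes. The interaction estimates ran from -0.73 for Abcg1 to 0.64 for Apoe.

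Around these 10 genes, other genes of lipid handling went both ways by day 3. In all, 7 lists with 75 genes were counted, and shares are to be read against the 50.2% (WT) and 42.5% (KO) of all genes called. The lists of LXR and PPAR target genes contain members, whose calls count there again. List values are from the fit without the title style, and no day 3 library had a double hyphen. Of the list genes named for day 3 below, Scd1 and Abca2 were called lower in double-hyphen libraries. Soat1, Hilpda, Lipa, Cpt1a and Pltp were called higher there. The part of the style in their day 3 changes was not tested.

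Among 14 other uptake genes, 3 rose and 4 fell in the WT label, and 3 rose and 3 fell in the KO label. Vldlr, a lipoprotein receptor, rose from 2.09 ± 0.42 to 12.2 ± 5.4 CPM (mean ± SD, n = 3; log2 fold change 2.54, edgeR adjusted p = 0.00208), and Acsl3, an acyl-CoA synthetase that feeds droplet growth, rose from 24.1 ± 0.80 to 63.7 ± 21.7 CPM. Fabp3, the heart fatty acid-binding protein, fell from 9.40 ± 4.53 to 2.42 ± 1.01 CPM, and the fatty acid transporter Slc27a4 fell from 64.4 ± 4.5 to 46.6 ± 1.1 CPM.

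Of 10 tested droplet genes, 3 rose and 2 fell in the WT label, and 4 rose and 5 fell in the KO label. Plin4, another perilipin, rose from 1.08 ± 1.67 to 16.3 ± 5.5 CPM, and Hilpda, a droplet protein that inhibits triglyceride lipase, rose from 4.56 ± 0.77 to 15.9 ± 2.6 CPM. Both therefore went the opposite way to Plin2. Bscl2, the seipin of droplet assembly, fell from 126 ± 24.9 to 53.8 ± 8.8 CPM, and Soat1, which esterifies cholesterol, fell from 351 ± 74.7 to 172 ± 23.9 CPM.

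Of 13 genes of lipolysis, lysosomal release and oxidation, 1 rose and 7 fell in each label. The median log2 fold change was -0.84 (WT) and -1.12 (KO), against -0.03 and -0.01 over all genes. In double-hyphen libraries, none of which is from day 3, 9 of these 13 were called higher, where 9.94% of all genes were. These medians therefore mix day and style, and the part of the style was not tested. Lipa, the lysosomal acid lipase, fell from 2236 ± 610 to 640 ± 261 CPM in the WT label (-1.81, edgeR adjusted p = 0.00206), and Cpt1a, the entry enzyme of mitochondrial fatty acid oxidation, fell from 291 ± 84.8 to 97.7 ± 21.3 CPM. Acadm, an acyl-CoA dehydrogenase, rose from 71.2 ± 3.4 to 106 ± 10.6 CPM.

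Of 8 tested efflux genes, 1 rose and 5 fell in the WT label, and 1 rose and 4 fell in the KO label. Cyp27a1, the sterol 27-hydroxylase, fell from 302 ± 88.7 to 19.7 ± 6.6 CPM (-3.94, edgeR adjusted p = 1.038e-05), a larger log2 change than that of any member. Apoc2, the cofactor of lipoprotein lipase, fell from 21.3 ± 5.1 to 3.42 ± 1.52 CPM, and the transporter Abca2 rose from 54.1 ± 1.7 to 116 ± 6.3 CPM.

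Of 11 tested nuclear receptors and partners, 1 rose and 6 fell in the WT label, and 1 rose and 4 fell in the KO label. Ppargc1b, a coactivator of mitochondrial gene expression, rose from 3.00 ± 1.13 to 42.3 ± 8.7 CPM. Rxra, the common partner of PPARγ and LXRα, fell from 283 ± 56.1 to 107 ± 34.6 CPM (-1.41, edgeR adjusted p = 0.00134), and the transcription factor Cebpb fell from 140 ± 8.6 to 52.3 ± 10.3 CPM.

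LXR targets went both ways. Of 11, 4 rose and 5 fell in the WT label, and 4 rose and 4 fell in the KO label. The desaturases Scd2 (166 ± 81.8 to 1251 ± 332 CPM) and Scd1 (39.8 ± 32.2 to 227 ± 51.8 CPM) rose in the WT label, whereas Mertk (311 ± 19.3 to 54.2 ± 19.4 CPM), a receptor for apoptotic cells, and Pltp (1439 ± 388 to 566 ± 154 CPM), the phospholipid transfer protein, fell with Abca1 and Apoe. Of 9 tested PPAR targets, 2 rose and 3 fell in the WT label, and 2 rose and 2 fell in the KO label. Klf4, a transcription factor, rose from 4.94 ± 0.12 to 15.5 ± 1.7 CPM and Acaa2, a thiolase of fatty acid oxidation, from 52.9 ± 7.1 to 99.1 ± 11.9 CPM, and Cpt1a is in this list too.

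**Figure D4:**
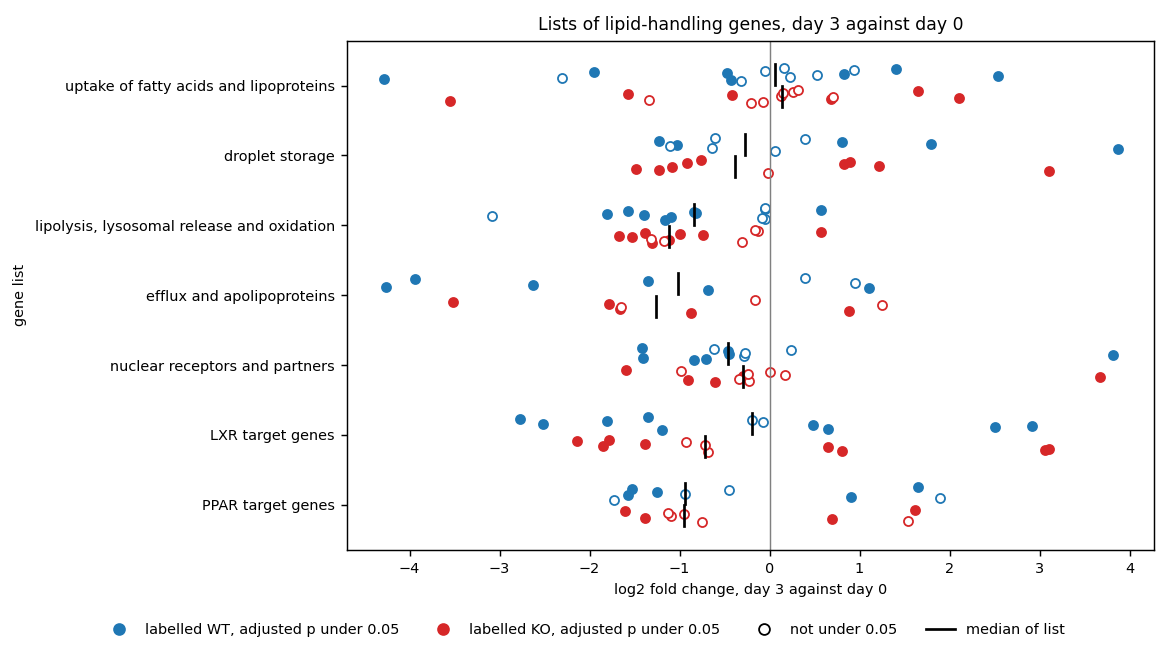
Log2 fold change from day 0 to day 3 of each tested gene of 7 lists, in the libraries labelled WT (blue, upper) and KO (red, lower); filled points have an adjusted p under 0.05 and black bars are list medians. Genes of lipolysis lie mostly left of 0, with list medians of -0.84 and -1.12, while the uptake list has medians of 0.06 and 0.14. Values are from the fit without the title style.

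For 8 of the members, the tested genes with the most similar pattern over the 18 libraries are given by the root mean square difference of centred log2 CPM, a description in which shared library differences count. Abca1 had the closest match, Ypel2 at 0.14 log2 units, followed by Cds1 at 0.20, against a spread of 0.75 of Abca1 itself. Apoe was closest to A530064D06Rik (0.27) and Irf8 (0.31) with a spread of its own of 1.31. Plin2 was closest to Rab7b (0.29) and Pld3 (0.30; own spread 0.87), and Pparg to Por (0.24) and Aplp2 (0.28; own spread 0.66). Fabp4 was closest to Anpep (0.39) and Mb (0.63; own spread 1.36), Fabp5 to Gpnmb (0.40) and Tfrc (0.43; own spread 1.03), and Abcg1 to Cadm1 (0.35) and Gla (0.37; own spread 0.65). Nr1h3 was closest to Pcna-ps2 (0.41) and Tmem237 (0.41) against 0.64. None of these 8 had another member among its 2 closest genes.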

How the data were processed

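RNA was sequenced from 18 libraries, 3 for each of the 6 combinations of label and day. Per the labels, RNA was extracted with a column kit and libraries were made with a SMARTer kit; the submitters' processing notes name StringTie and the builds GRCm38.p4 and mm10. The authors deposited whole-number read counts per gene and FPKM values (per length and library size) for each gene; the aligner and counting program are not given in the sources used here. The deposited FPKM values were used for levels between genes and for 1 alternative fit, and the deposited counts for all else.

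Counts were filtered with filterByExpr, scaled by TMM and fitted in edgeR 4.0.16 (R 4.3.3) with the quasi-likelihood test on 18 libraries as 6 groups. P-values are 2-sided and Benjamini-Hochberg adjusted over 14241 genes, and intervals are at 95%. CPM are scaled by TMM-adjusted library totals; errors cover the spread between libraries and not PCR duplicates. Log2 values use a prior count of 2. Alternatives were DESeq2 1.42.0, limma 3.58.1 on log2(FPKM + 0.1), 2 other scalings, 2 other filters, title style as a covariate, single-hyphen libraries only, the WT day 1 libraries numbered 1 averaged, only the libraries of the groups compared, a replicate block, an unadjusted rule (p under 0.05 and fold over 1.5 or under 0.66), and each library left out in turn. The code was tested on simulated counts. The members, gene lists, markers and comparisons were chosen with earlier results of these data known. Named were all 10 members, with fold changes where called or not overlapping, up to 4 genes of each list (the largest called rises and falls in the WT label, mean of at least 5 CPM), and the 2 most similar genes of each member (those of Cd36 and Lpl are not reported here); Adipoq, Lipe, Mgll, Angptl4, Pdk4 and other members' values were named after being seen.

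Same-number libraries deviated together in the KO label between days 0 and 3 (correlations of 0.13 to 0.398) and days 1 and 3 (0.156 to 0.34), all 3 pairs over 0.1. Some different numbers did so as well. KO day 0 library 2 gave 0.155 with day 3 library 1 and 0.135 with day 3 library 2. KO day 1 library 2 gave 0.187 with day 3 library 1 and 0.156 with day 3 library 2. With its own number, KO day 3 library 1 gave 0.130 on day 0 and 0.218 on day 1. Other pairs of different numbers went down to -0.279. The block took the numbers as pairs in the KO label, a hint from the data that does not show pairing and is not from the labels. In the WT label 1 of 3 pairs was over 0.1 between days 0 and 3 and 0 of 3 between days 1 and 3. Promoters came from a RefSeq table (GRCm38.p6), and for genes with several the one nearest the table's gene start was taken. Reads and transcript isoforms were not analysed here.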

Additional observations from a re-analysis of the deposited data

How the results depend on the processing

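Members called are counted out of 10. Abca1 was called by day 3 in all 17 alternatives of each of its 4 comparisons with day 0 or day 1, and Apoe in all 17 of each except KO day 3 against day 1, where 5 lost the call. Plin2 against day 0 was lost in 3 leave-outs in each label, and Cd36 in the WT label in 12 of 17 (adjusted p from 0.0241 to 0.161). In the WT label from day 0 to day 3, leaving out libraries gave 2 to 5 members called: 2 without WT day 3 library 1, WT day 3 library 3 or WT day 0 library 1, and 5 without WT day 0 library 2, Abca1, Apoe, Cd36 and Plin2 among them. In the KO label that comparison gave 5 when the fit held those groups alone. From day 1 to day 3 in the WT label, the unadjusted rule gave 7 and leave-outs 2 to 6. In the KO label from day 1 to day 3, the unadjusted rule gave 7, title style as a covariate 1, single-hyphen libraries only 1 (its KO day 1 group holds 1 library, assumed to vary like the other groups), the averaged WT day 1 libraries 4, the replicate block 4, DESeq2 5, a fit of those groups alone 8, and leave-outs 1 to 5. The cause was not tested. From day 1 to day 3, an unadjusted p under 0.05, without the fold limit, was met by 6185 (WT) and 5878 (KO) of the 14241 genes. In the KO label the replicate block called 28.2% of all genes there. Leaving out KO day 1 library 3, which gave 5 members, called 29%. Shares for the other counts of this paragraph are not given here, so those counts are not results about these members. Between the labels, on day 1 and for the interaction the count was 0 in every alternative. The numbers were not shown to pair libraries in either label. In the WT label the replicate block lost Cd36 against day 0 (adjusted p = 0.0712) and Plin2 against day 1 (adjusted p = 0.0864). With 3 libraries a group, small changes of Fabp4, Fabp5 and Lpl were not detectable at their spread.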

Other observations

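Beyond the 10 genes, lists of lipid genes differed in how many were called for the title style. Of 13 genes of lipolysis, lysosomal release and oxidation, 9 were higher and 0 lower in double-hyphen libraries (edgeR, style as a covariate). Of all genes, 9.94% were called higher and 23.2% in either direction. Lipa was 1.76-fold higher (adjusted p = 0.00886) and Cpt1a 1.59-fold higher (adjusted p = 0.0204). Named after their values were seen, Mgll, the monoglyceride lipase, was 6.95-fold higher (adjusted p = 0.00516), and Angptl4, an inhibitor of lipoprotein lipase, was 4.55-fold higher (adjusted p = 0.00131). Not all PPAR targets went that way: Pdk4, a kinase that holds back pyruvate oxidation, was lower (log2 fold change -1.78, adjusted p = 0.0204). Among 9 PPAR targets, 4 were higher and 1 lower, and among 11 LXR targets 3 were higher and 1 lower, with members of the 10 counted in both lists. Of 10 droplet genes 3 were higher and 1 lower, of 8 efflux genes 1 was higher and 2 lower, of 14 uptake genes 0 were higher and 1 lower, and of 11 nuclear receptors and partners 0 were called.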
